A study of Mus musculus with 4 samples.

Results

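Both neuropilin genes, Nrp2 and Nrp1, were followed through lists of accessible chromatin from lung endothelial cells. ATAC-seq, which uses a transposase to tag accessible DNA, had been run on 4 libraries of lung endothelial cells, which were isolated from mice by flow sorting. Of these, 2 came from Dnmt3a knockout mice (KO) and 2 from wild-type mice (WT). Dnmt3a encodes a de novo DNA methyltransferase. The labels give no age, sex, strain or knockout driver, and they leave unstated whether each library came from its own animal. Every peak that touched a gene's mm10 span or the 50 kb either side of it was taken, and peaks of the 4 lists that shared at least 1 bp were joined into a region. This gave 27 regions for Nrp2 and 22 for Nrp1, 49 of the 113056 in the genome. The genes were chosen on differences between the KO and WT lists seen earlier in these same data, among them the KO-only regions of Nrp2. Their KO against WT values are therefore given as a description, with no test, and the main counts are set beside the share of the whole genome that meets the same condition.

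Neuropilins are transmembrane co-receptors. They bind most class 3 semaphorins, many of which repel growing axons or vessels, together with plexin receptors. They also bind members of the vascular endothelial growth factor (VEGF) family together with VEGF receptors. Nrp1 is best known for VEGF-A signalling in vessel sprouting and for arterial endothelium. Nrp2 is best known for VEGF-C signalling in lymphatic vessels and for venous and lymphatic endothelium.

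The deposited peaks carry a position and a width but neither height nor reads. Depth is therefore unknown, and a missing peak does not show closed chromatin. List length ranged from 85091 to 101442 peaks, with the shortest list and the widest median peak (467 bp, against 407 to 443 bp) in KO replicate 1. KO replicate 2 stood apart from the other libraries in having peaks at 0 of 5 Y-linked genes, against 3 or 4, and 3 peaks at Xist, against 1. The labels give no sex, and whether the KO libraries came from animals of different sex was not tested. In every library all 9 pan-endothelial markers were marked by a peak no more than 1000 bp from either end of the gene. So did 3 of 4 lymphatic and 4 of 5 venous markers, 4 of 4 fibroblast and mural markers and 3 or 4 of 4 epithelial markers, with leukocyte markers at 0 or 1 of 5. The part of other cell types in the results at the neuropilin genes was not tested.

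The starts of both genes were accessible in every list. The 250 bases before each RefSeq start (GRCm38.p6, the mm10 assembly, plus strand) are printed because CpG sites, in capitals, are the substrate of the enzyme that the knockout removes. The Nrp2 stretch is chr1:62703067-62703316 and the Nrp1 stretch chr8:128358823-128359072.
Nrp2: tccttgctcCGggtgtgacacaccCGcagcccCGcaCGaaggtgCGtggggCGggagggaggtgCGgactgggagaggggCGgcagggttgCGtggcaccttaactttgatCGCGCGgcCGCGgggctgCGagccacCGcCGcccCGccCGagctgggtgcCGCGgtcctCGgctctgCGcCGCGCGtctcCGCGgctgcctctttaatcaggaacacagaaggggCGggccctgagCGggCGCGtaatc
Nrp1: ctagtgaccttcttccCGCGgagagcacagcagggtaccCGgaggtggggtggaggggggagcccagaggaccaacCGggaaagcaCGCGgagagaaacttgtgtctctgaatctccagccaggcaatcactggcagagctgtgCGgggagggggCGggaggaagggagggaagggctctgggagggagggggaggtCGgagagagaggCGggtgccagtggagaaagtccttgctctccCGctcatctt

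The Nrp2 stretch holds 32 CpG sites, more than 95.6% of the 27025 gene promoters in the RefSeq table, and the Nrp1 stretch holds 11, more than 64.0% of them. The median promoter holds 6. The letters GGGCGG, a GC box, occur 5 times on either strand before Nrp2 and 1 time before Nrp1, and 32.9% of promoters hold them at least once; each occurrence also contains a CpG. The ETS core letters GGAA, on either strand, occur 1 and 4 times, and 93.4% of promoters hold them. A listed peak covered all 250 bases of each stretch in all 4 libraries. At Nrp2 that peak was 822 and 752 bp wide in the KO libraries and 749 and 757 bp in the WT libraries, so the groups overlapped as listed. The Nrp1 start lay in the widest region of either gene, chr8:128356942-128359488, whose peaks summed to 2360 and 2097 bp in KO and 2321 and 2513 bp in WT. That region also reaches the long noncoding RNA gene A930035F09Rik and the microRNA gene Mir1903. Quantile normalization between lists removes the general difference in width. With it, the Nrp2 peak was 792 and 794 bp in KO and 746 and 745 bp in WT, an order of KO over WT. Such an order held at 20.3% of regions in all 4 lists. The Nrp1 region was 2305 and 2195 bp in KO and 2316 and 2427 bp in WT, the opposite order, which 14.8% had. The RefSeq start used for Nrp1 lies 482 bp inside the annotated span.

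Nrp2 (gene identifier 18187) spans chr1:62703317-62818692. Of its 27 regions, 20 (74.1%) were listed in all 4 libraries, against 66.7% of all regions. Regions listed in both KO libraries but in no WT library are called KO-only here, and the opposite kind WT-only. Nrp2 had 3 KO-only regions (11.1%, against 1.12% genome-wide) and 0 WT-only regions (3.04% genome-wide). The other 4 were split among lists of both genotypes or found in a single list. A count of at least 3 such KO-only regions was reached at 86 of 21883 protein-coding genes (0.393%). That share does not allow for the size of the Nrp2 window, which held 27 regions against a median of 9 over all genes. Because the KO-only count helped to choose Nrp2, nothing further is read from it.

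All 3 KO-only regions lay inside Nrp2, spread over the gene at 14.7, 63.6 and 92.5 kb from its start. The first, chr1:62717857-62718247, had KO peaks of 391 and 342 bp. It lay 256 bp from a region found in all 4 lists (563 and 457 bp in KO, 541 and 596 bp in WT) and reached the end of the noncoding RNA gene Gm29083, so WT chromatin was listed immediately beside it. The second, chr1:62766662-62767230, had peaks of 476 and 306 bp, and the nearest WT peak was 5819 bp away.

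The third, chr1:62795546-62796149, stood furthest from any WT signal. Its peaks were 600 bp wide in KO replicate 1 and 464 bp in KO replicate 2, at the 66.3 and 60.7 percentiles of their lists. The nearest WT peaks were 17391 and 16289 bp away. It lay 814 bp from the noncoding RNA gene 4930487H11Rik. Most KO-only regions were narrow, with median percentiles of 13.9 and 21.7, and in 45 of 1267, this one among them, neither peak was narrower than the median of its list. The table used here gives gene spans without exons, so whether the 3 regions are exonic or intronic was not analysed here.

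**Figure D1:**
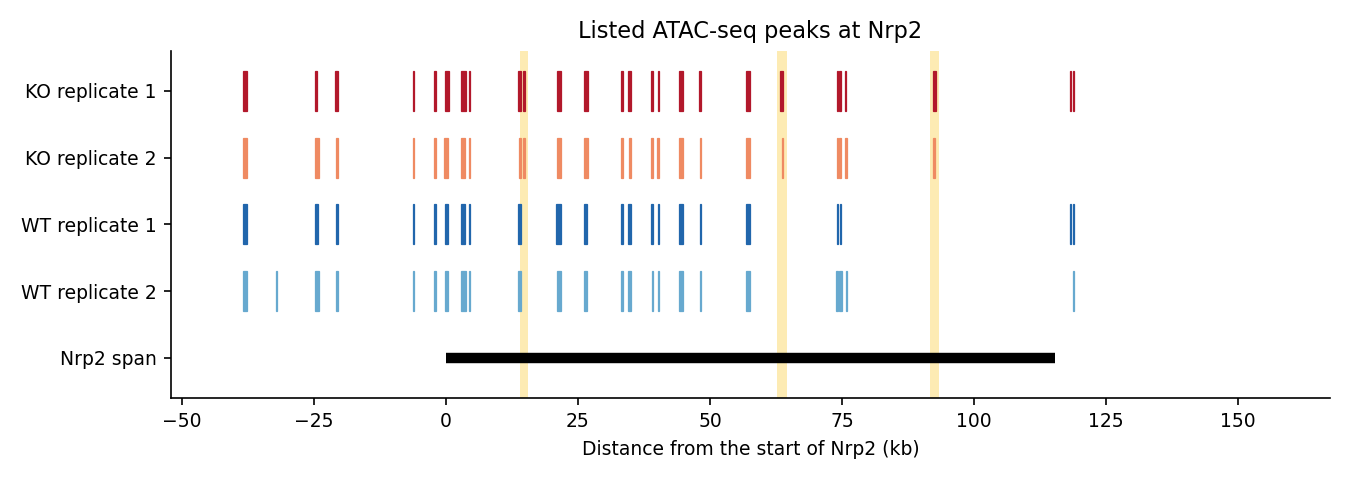
Each row is 1 library, each mark a listed peak, and the black bar the Nrp2 span, plotted by distance from the gene start in kb (marks have a minimum thickness so that narrow peaks can be seen). Shaded columns are the 3 KO-only regions, all inside the gene.

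The Nrp2 window held 26 and 24 listed peaks in KO replicates 1 and 2 and 22 and 23 in WT replicates 1 and 2. Both KO libraries were thus above both WT libraries, an order found at 2.54% of protein-coding genes. The order rested on the 3 KO-only regions by which Nrp2 was chosen, so nothing is read from it: without them the counts were 23 and 21 in KO and 22 and 23 in WT, and the genotypes overlapped. The means were 25.0 ± 1.41 in KO and 22.5 ± 0.707 in WT (± SD, n = 2 each), a difference of 2.5 that was 1.5 without KO replicate 1 and 3.5 without KO replicate 2. Inside the gene span alone the counts were 19 and 19 against 15 and 16, and without the KO-only regions 16 and 16 against 15 and 16. KO replicate 1 had the highest count of the 4 libraries although its list was the shortest, as at 2.51% of genes, but without the KO-only regions it was level with WT replicate 2. Per 100000 listed peaks, Nrp2 held 30.6 and 23.8 in KO and 21.7 and 23.6 in WT, so KO replicate 2 and WT replicate 2 were close on that scale. Covered length was 12609 and 11859 bp in KO against 10319 and 11263 bp in WT, an order of KO over WT that 3.77% of genes shared. In the whole window this order too came from the KO-only regions, since without them the lengths overlapped, at 11142 and 10747 bp against 10319 and 11263 bp. For regions touching the gene span the order stayed without them, at 8128 and 8060 bp in KO against 7309 and 8049 bp in WT. There KO replicate 2 and WT replicate 2 were nearly level.

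Among the 35 protein-coding genes with at least 3 KO-only and 0 WT-only regions, Nrp2 was the 1 gene with more peaks in KO replicate 1 than in KO replicate 2. At 32 of the 35 the order was the opposite, and at the other 2, Pcdhgc3 and Pcdhgc4, the counts were equal. This comparison was picked after its values were seen.

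**Figure D2:**
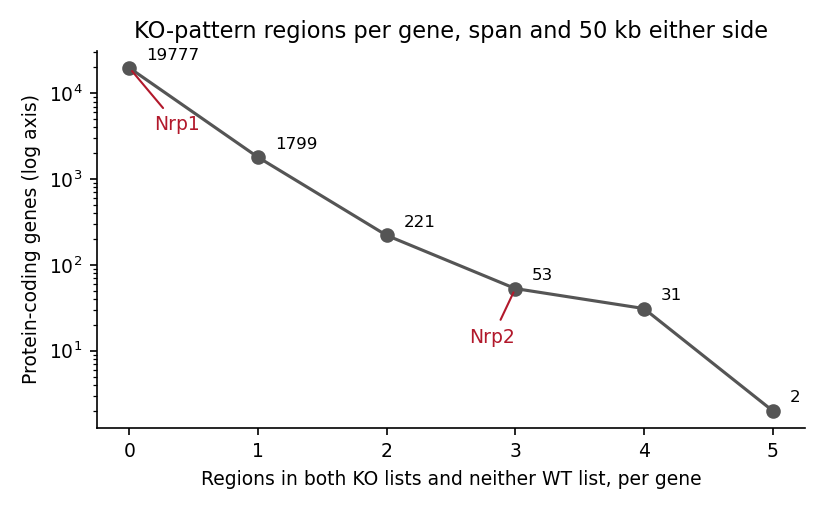
Number of protein-coding genes (y, log axis) by how many KO-only regions lie in the gene or 50 kb either side (x). Nrp2 is among the 53 genes with 3 such regions, and Nrp1 among the 19777 with 0.

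Widths were next compared at the 20 Nrp2 regions found in every list. Both KO widths were above both WT widths at 5 of them (25.0%, against 7.37% of such regions genome-wide), and both WT widths above both KO widths at 1 (5.0%, against 27.1%). With widths quantile-normalised between lists, which removes the general difference in width, the counts were 10 (20.3% genome-wide) and 1 (14.8%). The median log2 width difference, KO minus WT, was 0.08 as listed and 0.12 normalised, where all regions had medians of -0.05 and 0.01. The limma fit over 75395 regions called 0 (0%) after Benjamini-Hochberg adjustment, with 4037 at an unadjusted p under 0.05, so no Nrp2 or Nrp1 region passed. With 2 libraries per genotype, and both genes chosen on this contrast, nothing about the widths at Nrp2 or Nrp1 is read from that.

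The largest of these width differences lay side by side, at 39.1 and 40.2 kb from the start of Nrp2. At chr1:62743325-62743712, the peaks were 293 and 388 bp wide in KO and 219 and 221 bp in WT, a log2 difference of 0.62. At chr1:62742162-62742589 they were 392 and 418 bp in KO and 318 and 324 bp in WT, a log2 difference of 0.33. WT peaks at the first were close to the narrowest width that any list held, 201 bp. The 1 region with the opposite order, chr1:62724251-62725081, had peaks of 715 and 729 bp in KO and 804 and 817 bp in WT.

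The remaining 4 Nrp2 regions did not follow genotype. A region 75.8 kb from the start was listed in both KO libraries (215 and 293 bp) and in WT replicate 2 (223 bp) but not in WT replicate 1. After the gene end, inside the noncoding RNA gene Gm4208, a region of 297 bp in KO replicate 1 and 318 bp in WT replicate 1 was missing from the other 2 lists. Its neighbour was missing from KO replicate 2 alone. The last, 32042 bp before the gene, was in WT replicate 2 alone (219 bp).

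Nrp1 (gene identifier 18186) spans chr8:128358591-128505476 on the plus strand, and 18 of its 22 regions touched the gene. All 4 libraries listed 13 regions (59.1%, against 66.7% genome-wide). Of the others, 0 were KO-only (1.12% genome-wide) and 1 was WT-only (4.55%, near the 3.04% of the genome). That region, chr8:128410306-128410677, lay inside the gene 51.9 kb from its start, and its WT peaks were 372 and 288 bp wide. The nearest KO peaks were 5461 and 5437 bp away.

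KO replicate 1 alone lacked 4 Nrp1 regions (18.2%, against 7.59% of all regions), at 18.8, 108.5, 133.3 and 161.0 kb from the gene start. At Nrp2 it alone lacked 0 of 27. The region at 108.5 kb was not narrow in the other lists, at 505 bp in KO replicate 2 and 409 and 466 bp in WT. KO replicate 2 alone lacked 1 Nrp1 region (1.82% genome-wide), and single lists held 3 (13.4% genome-wide), of which 2 were in WT replicate 1 and 1 in KO replicate 1.

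**Figure D3:**
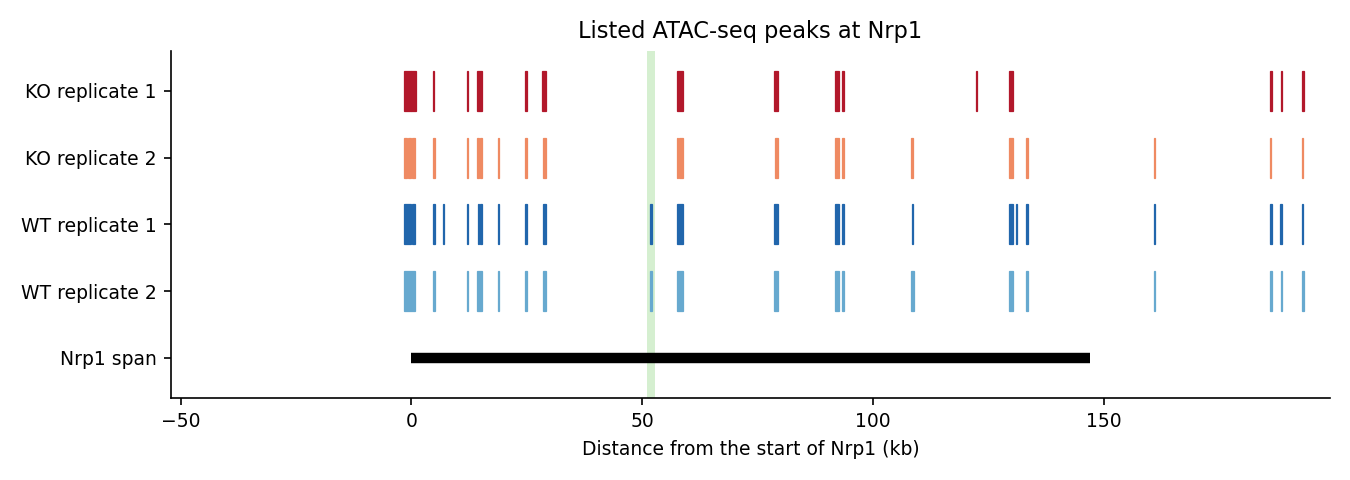
Each row is 1 library, each mark a listed peak, and the black bar the Nrp1 span, plotted by distance from the gene start in kb (marks have a minimum thickness). The shaded column is the 1 WT-only region; the marks missing from KO replicate 1 alone lie at 18.8, 108.5, 133.3 and 161.0 kb.

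The Nrp1 window held 16 and 21 listed peaks in KO replicates 1 and 2 and 23 and 20 in WT replicates 1 and 2. The genotypes overlapped, at 18.5 ± 3.54 against 21.5 ± 2.12 (mean ± SD, n = 2 each), and the difference of -3.0 was within the spread between the KO libraries. Leaving out KO replicates 1 and 2 in turn gave -0.5 and -5.5, and leaving out WT replicates 1 and 2 in turn gave -1.5 and -4.5. Per 100000 listed peaks the values were 18.8 and 20.8 in KO and 22.7 and 20.5 in WT. Inside the gene span alone the counts were 12 and 16 in KO and 18 and 16 in WT, which overlapped. Per 100000 listed peaks the span held 14.1 and 15.9 in KO and 17.7 and 16.4 in WT, with both WT values above both KO values. How many genes share that order on this scale was not computed. In the whole window, covered length was lower in both KO libraries, 10704 and 10553 bp against 12553 and 12130 bp, an order that 36.9% of genes shared. Without the WT-only region the WT lengths were 12181 and 11842 bp, still above both KO lengths.

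At the 13 Nrp1 regions in every list, KO was wider at 1 (7.69%, against 7.37% genome-wide) and WT wider at 1 (7.69%, against 27.1%), with 11 overlapping. The median log2 difference was -0.03. With normalised widths KO was wider at 4 (20.3% genome-wide) and WT at 2 (14.8% genome-wide), with a median of 0.01. The WT-wider region on both scales, chr8:128451744-128452281, had peaks of 349 and 435 bp in KO and 538 and 526 bp in WT, a log2 difference of -0.45. Whether Nrp2 and Nrp1 differ from each other in these widths was not tested.

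**Figure D4:**
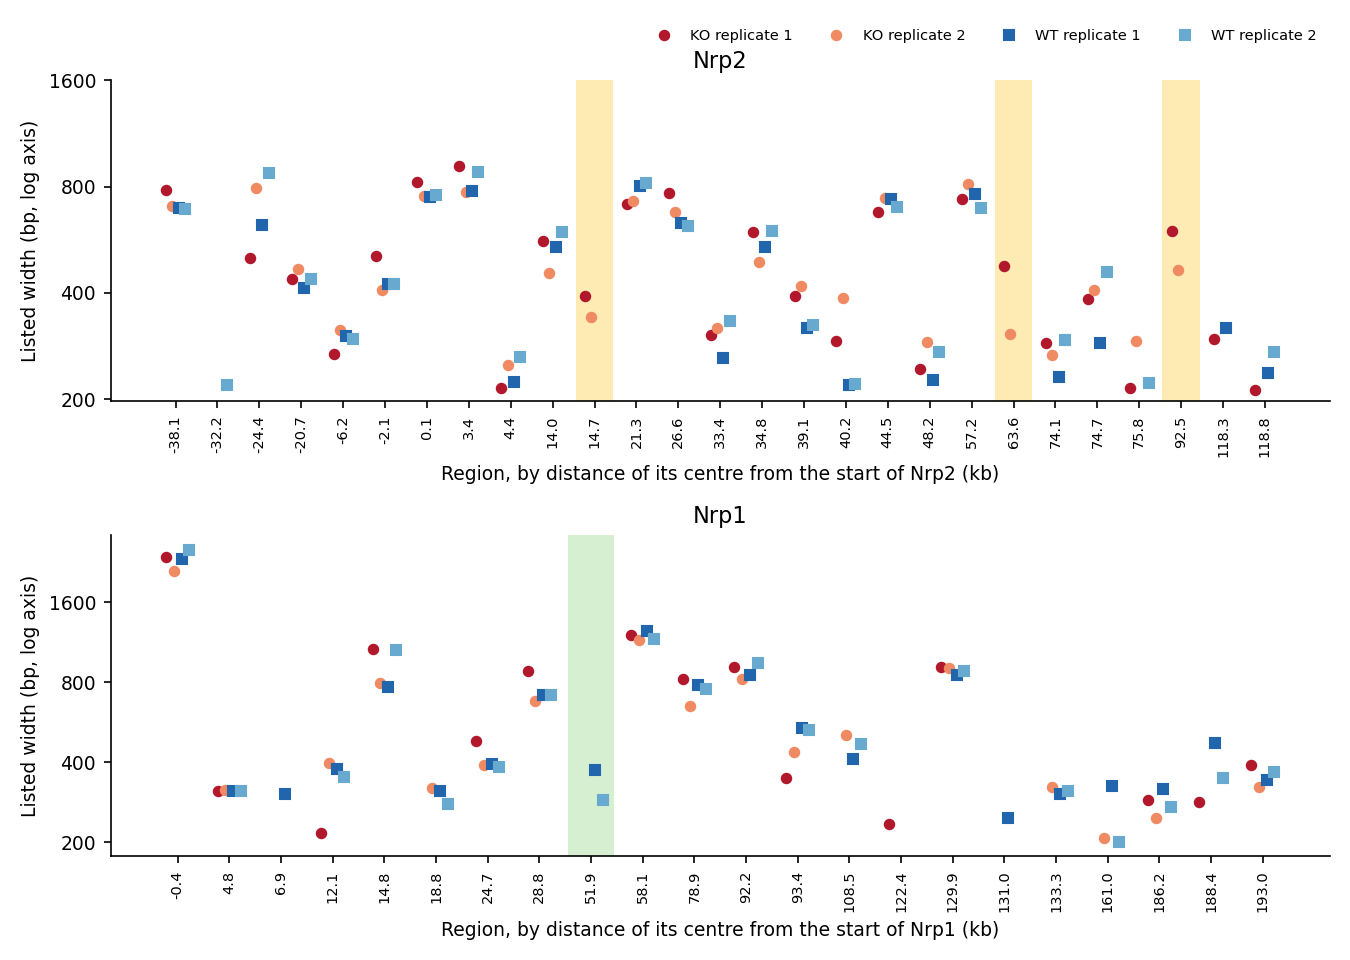
Listed width in bp (log axis) of each region at Nrp2 (top) and Nrp1 (bottom), ordered by distance from the gene start, with circles for KO and squares for WT libraries. Regions without a point for a library were not in its list; shading marks the 3 KO-only and the 1 WT-only regions. At 40.2 kb in Nrp2 the KO points, 293 and 388 bp, lie above the WT points, 219 and 221 bp.

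The lists were most alike at both genes within the WT pair. The Jaccard index, shared over total base pairs, was 0.813 between WT lists at Nrp2 and 0.846 at Nrp1 (0.823 genome-wide). Between the KO lists it was 0.763 at Nrp2 and 0.696 at Nrp1 (0.708 genome-wide). Of the pairs across genotypes at Nrp2, KO replicate 1 gave 0.722 and 0.687 and KO replicate 2 gave 0.743 and 0.762. At Nrp1, KO replicate 1 gave 0.699 and 0.767 with the WT lists, and KO replicate 2 gave 0.792 and 0.819. Genome-wide these pairs gave 0.72 and 0.739 for KO replicate 1 and 0.778 and 0.778 for KO replicate 2, so that KO replicate 2 was closer to the WT lists than to KO replicate 1 over the genome as well as at Nrp1.

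The window edges held few regions. Before Nrp2 the outermost region inside the window lay 37654 bp from the gene and the next one, outside it, 107555 bp away, in KO replicate 2 and WT replicate 1. After Nrp2 they lay 3290 and 66086 bp away. Before Nrp1 the next region lay 75492 bp away, in both WT lists, and after it the regions lay 45925 and 55154 bp away, the latter in KO replicate 1 alone.

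The ligands and partners of neuropilins were read in the same windows. Over 27 genes in 5 groups there were 497 distinct regions, of which 70.0% were in all 4 lists, 6 (1.21%) were KO-only and 12 (2.41%) WT-only, near the genome-wide 1.12% and 3.04%. KO-only regions fell at 6 of the 27 genes (22.2%, against 9.62% of protein-coding genes) and WT-only regions at 8 (29.6%, against 19.8%), with a median of 17 regions per gene here and 9 over all genes. Both KO libraries listed more peaks than both WT libraries at 1 gene, and fewer at 5 (10.6% of all genes had that order). The other 21 overlapped.

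Among the 7 class 3 semaphorins, read here as the semaphorin ligand group, 0 had a KO-only region, where 9.62% of protein-coding genes had at least 1. With 7 genes, nothing is read from that 0. Sema3a, a repellent that binds Nrp1, was the 1 gene with more peaks in both KO libraries, 10 and 8 against 7 and 7. Sema3c had 12 and 10 peaks in KO and 16 and 14 in WT, and held 2 WT-only regions inside the gene, of 447 and 441 bp and of 267 and 205 bp. Sema3f, a semaphorin that binds Nrp2, had 28 and 27 peaks in KO and 30 and 29 in WT, with no region of either kind. Of the 5 VEGF ligands, only Pgf (20.0%), the placental growth factor gene, had such a region, KO-only, of 216 and 396 bp. Vegfc, whose product binds Nrp2, had 10 and 12 peaks in KO against 11 and 12 in WT.

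Of the 8 receptors that act with neuropilins, 3 had a KO-only region (37.5%, against 9.62% of protein-coding genes). Their windows were large, with a median of 25 regions against 9 over all genes. Of the 203 regions counted over them, 3 were KO-only (1.12% genome-wide) and 3 WT-only (3.04% genome-wide). Plxnd1, a plexin of endothelial cells, had a KO-only region of 501 and 606 bp inside the gene, and also a WT-only region of 206 and 216 bp. Flt1, a VEGF receptor gene, had a KO-only region of 332 and 358 bp inside the gene. Kdr, the main VEGF receptor gene of endothelium, had a KO-only region of 268 and 301 bp that lay 1516 bp from the gene. Plxna1 had 2 WT-only regions and fewer peaks in both KO libraries, 11 and 14 against 16 and 15. Flt4, the VEGF-C receptor gene, had neither kind, with 17 and 22 peaks in KO against 20 and 20 in WT.

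Of the 3 cytoplasmic partners, Gipc1, which encodes a protein that binds the neuropilin tail, had a KO-only region of 214 and 231 bp lying 5513 bp away. Bcar1, an adaptor gene, had 1 WT-only region and Abl1, a kinase gene, had 2. Of 4 genes whose products share extracellular domains with neuropilins, Dcbld1 had 1 region of each kind, Dcbld2 had 1 WT-only region, Neto1 had 2 WT-only regions and Neto2 had neither. WT-only regions fell at 66.7% of the partners and 75.0% of these 4 genes, against 19.8% of protein-coding genes. For KO-only regions the shares were 33.3% and 25.0%, against 9.62%. Median regions per gene were 24.0 and 9.5, against 9 over all genes. With 3 and 4 genes, nothing is read from these shares. None of the 27 genes held more than 1 KO-only region. Few genes did: of 21883 protein-coding genes, 221 held 2, 53 held 3, 31 held 4 and 2 held 5. Nothing is therefore read from their absence among these 27.

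**Figure D5:**
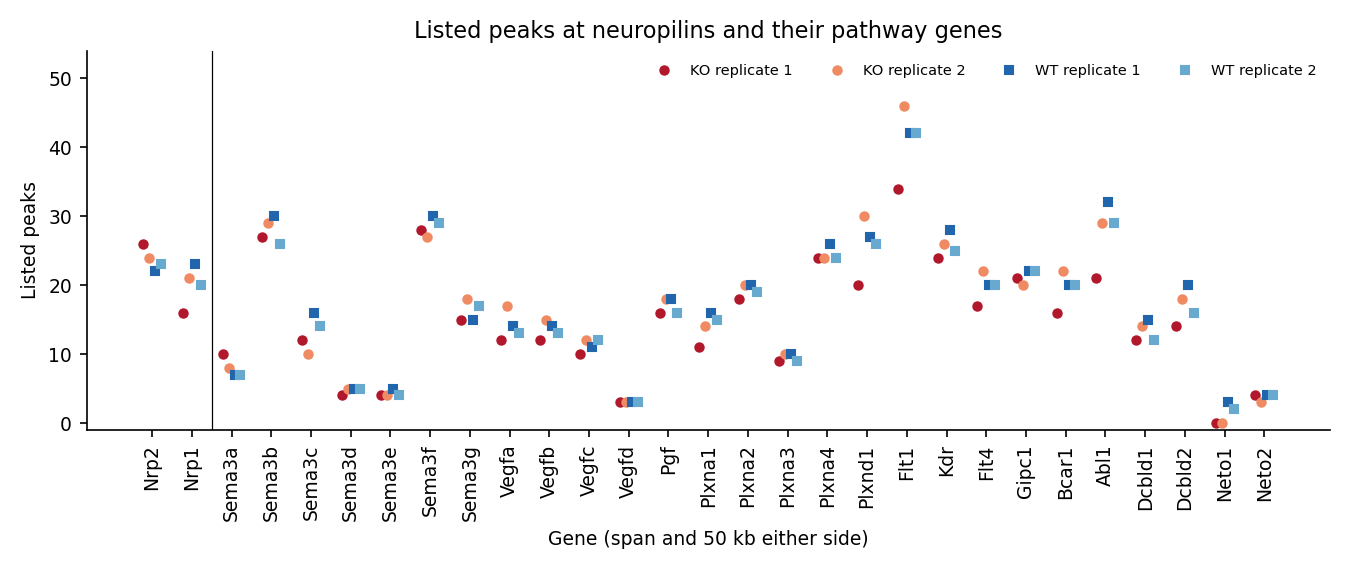
Listed peaks (y) in each of the 4 libraries at Nrp2 and Nrp1 (left of the line) and at 27 genes of their ligands, receptors and relatives, with circles for KO and squares for WT. Both KO libraries lie above both WT libraries at Nrp2 (26 and 24 against 22 and 23, KO-only regions included) and Sema3a (10 and 8 against 7 and 7).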

How the data were processed

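ATAC-seq peak lists of 2 KO and 2 WT libraries were used, with genotype and replicate from the labels. Cutadapt, Bowtie2 and Picard, with the mm10 build, are named in the submitters' processing notes, without versions or roles. Which program called the peaks, at what cutoff and at what depth, is not given in the sources used here. The measurement used was peak width in base pairs, the only one in the 4 lists deposited by the authors, per the file headers. Peaks outside chromosomes 1 to 19, X and Y (92 to 134 per list) were left out. Peaks sharing 1 bp were merged, and regions were placed against RefSeq gene spans (GRCm38.p6). Log2 summed widths of regions in all 4 lists were quantile-normalised and fitted genome-wide with limma (two-sided, Benjamini-Hochberg, adjusted p under 0.05). Merging and fit were tested on simulated data.

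The members and gene lists were chosen with earlier results of these data known. The named genes were Nrp1, Nrp2 and, of 27 pathway genes, those with a KO-only or WT-only region, others being named after their values were seen. Peak sequences were not analysed here. With 2 libraries per genotype, SDs measure only the spread between these libraries, which may be technical. Alternatives covered overlap, distance to the other genotype, list length, width, window, normalization, and leaving out each library. Python 3.11.15, numpy 2.4.6, pandas 2.3.3, R 4.3.3 and limma 3.58.1 were used.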

Additional observations from a re-analysis of the deposited data

How the results depend on the processing

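The 3 KO-only regions of Nrp2 were all found with a 50% overlap rule and with lists of equal length. They were also found with the narrower windows and without each library in turn, but those settings could not lose them. All 3 lie inside the gene, and leaving out a library asks for 1 list fewer. Of the 3, the one 256 bp from a shared region was lost when no WT peak was allowed within 500 bp, and it and the one at 63.6 kb were lost once peaks narrower than the median of their list were dropped, where a region 2.1 kb before the gene met the condition instead. With lists cut to their widest peaks at equal length, the Nrp2 count was 5 and its peak difference 6.5. This setting removes the narrowest peaks of both WT lists and of KO replicate 2, and none of KO replicate 1. With only the wider peaks the WT-only count at Nrp1 was 0. The WT peaks of that region, 372 and 288 bp, were below the list medians of 431 and 443 bp, so this setting drops them. The Nrp1 peak difference turned to 0.5, and the cause of that was not tested. Without the regions found in one genotype only, a setting chosen after seeing the data, the Nrp2 peak difference turned to -0.5, because the 3 KO-only regions add 3 peaks to each KO list. Without each library the WT-only counts ranged from 0 to 1 at Nrp2 and from 1 to 5 at Nrp1, highest without KO replicate 2, and the KO-only count at Nrp1 from 0 to 1. Those settings ask for 1 list fewer. The limma fit called 0 regions under every setting run, including the replicate block, which gave 0 with 3986 at an unadjusted p under 0.05. Same-numbered libraries deviated with a correlation of -0.04, so the numbers were not taken to pair them. Missing read depth limits every count of absent peaks.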
